A study of Mus musculus with 16 samples.

Results

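The genes described here are 10 enzymes of fatty acid synthesis and desaturation: Acly, Acaca and Fasn, which make the saturated chain, the desaturases Scd1, Scd2, Fads1 and Fads2, and the elongases Elovl1, Elovl5 and Elovl6. They were chosen by symbol from the 54532 genes of the count table, and all 10 were found and passed the filter on low counts in all 5 comparisons. RNA was sequenced from 16 samples of mouse TCF1+CD8+ T cells, which were grown for 4 days from naive CD8+ T cells of C57BL/6J spleens and activated repeatedly. The design asks how prostaglandin E2 (PGE2) alters the transcriptome of such cells at rest and after renewed stimulation. All groups were first incubated for 1 h, with or without PGE2, and then received IL-2 at 85 U/ml for 4 h. Unstimulated untreated cells received nothing else, and unstimulated PGE2 cells had 100 ng/ml PGE2 in the 1 h incubation. Stimulated untreated cells received, with the IL-2, 1 bead per cell that carried antibodies to CD3 and to CD28, and stimulated PGE2 cells received both PGE2 and beads. Each group held 4 replicates. The labels do not say that replicates were separate mice or cultures, so the p-values measure the spread between these samples. The cells are a culture model and were not taken from tumours.

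Fatty acid synthesis starts from citrate, which Acly splits to acetyl-CoA in the cytosol. Acaca (acetyl-CoA carboxylase 1) turns acetyl-CoA to malonyl-CoA, and Fasn joins malonyl units to palmitate. Elongases of the endoplasmic reticulum then lengthen fatty acids, and desaturases set double bonds: Scd enzymes in saturated chains, and Fads enzymes in the essential polyunsaturated ones. Activated T cells need such lipids for new membranes, and the SREBP transcription factors and the LXR nuclear receptors are known regulators of these genes.

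The libraries held 22678254 to 42950763 counts. The CD8 T cell markers summed to 2622 to 4488 CPM (counts per 1000000 library counts) in the 16 samples, and Tcf7, which encodes TCF1, lay between 913 and 1540 CPM in the 8 unstimulated samples and between 289 and 469 CPM in the 8 stimulated ones. All 5 adipocyte, all 5 erythroid and all 4 fibroblast markers stayed below 1 CPM, with Lep and Col3a1 at 0. Of the 5 myeloid markers, 4 stayed below 1 CPM and Cst3 reached 66.6 CPM. Of the 3 NK cell markers, Ncr1 was at 0, Klrb1c was at most 0.0999 CPM and Eomes, which CD8 T cells also express, ranged from 5.55 to 178 CPM. The 4 B cell markers summed to 10.1 to 20.3 CPM in unstimulated and 4.40 to 11.1 CPM in stimulated samples. Cd4 reached 1.87 CPM and Foxp3 9.07 CPM, and their sum was 4.61 to 9.52 CPM without and 3.20 to 6.65 CPM with stimulation. The part of these cells in the results below was not tested. In such bulk samples, fewer cells of a type and less RNA per cell cannot be told apart.

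Per gene length, Scd2 was the most abundant of the 10 transcripts in unstimulated untreated cells. Its FPKM level (fragments scaled by gene length and library size) was 146 ± 15.0 (SD, n = 4), followed by Elovl5 with 58.7 ± 2.79 and Acly with 39.1 ± 1.99. Elovl1 (21.8 ± 1.14) and Fasn (20.3 ± 1.76) overlapped each other. Fads1 (13.1 ± 0.483), Elovl6 (5.48 ± 0.518) and Acaca (3.36 ± 0.268) came next, each apart from its neighbours. Fads2 (1.74 ± 0.612) and Scd1 (1.11 ± 0.460) were lowest and overlapped. In stimulated untreated cells the order began with Scd2 at 89.6 ± 21.5, Fasn at 66.8 ± 12.5 and Acly at 50.8 ± 4.17, where neighbours overlapped, and Elovl5 stood below Elovl1 at 29.2 ± 2.05. Scd1 and Fads2 remained the lowest in all 4 groups, with counts of 66 to 291 and 42 to 134 per sample. The FPKM of Fads1 and Fads2 rest on gene lengths in the deposited table of 3456 and 1508 bases, whereas GENCODE release M21 gives 4812 and 3295 exon bases.

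**Figure D1:**
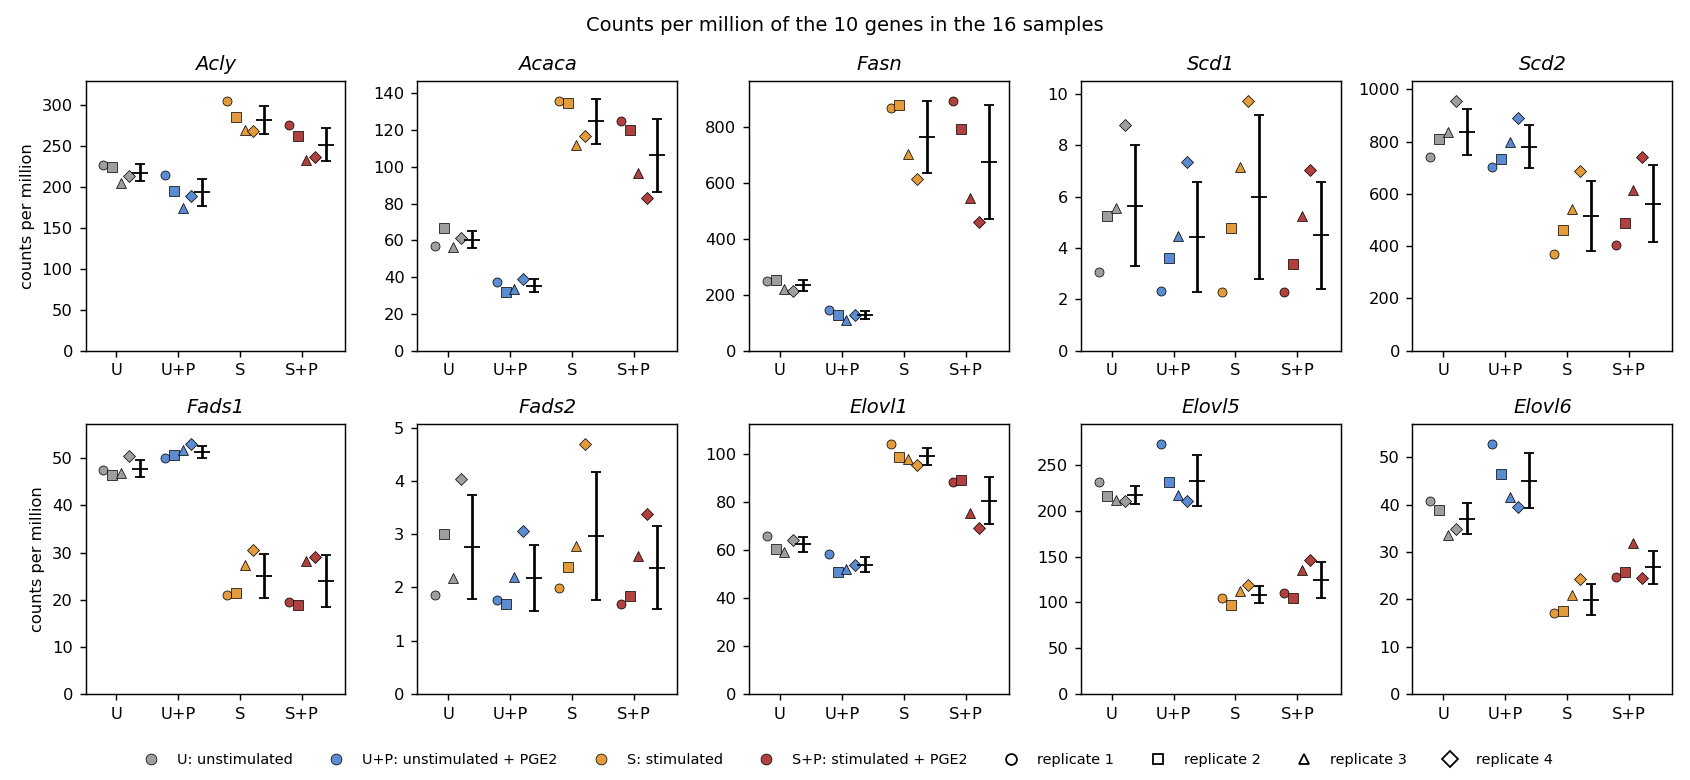
CPM (linear axes from 0) of the 10 genes in the 16 samples, by group; symbols are replicates 1 to 4, the bar is the mean with its SD. Fasn lay at 616 CPM or above in stimulated untreated and at 252 CPM or below in unstimulated untreated samples, while Scd1 spread from 2.30 to 9.72 CPM within the stimulated untreated group.

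Stimulation without PGE2 raised the synthesis enzymes and Elovl1 and lowered Scd2, Fads1, Elovl5 and Elovl6. Of the 10 genes, 4 were higher and 4 lower at an adjusted p below 0.05 (edgeR's quasi-likelihood test with Benjamini-Hochberg adjustment over all genes tested, used for every adjusted p here unless another tool is named). In this comparison 66.5% of all genes tested passed, 31.7% higher and 34.8% lower. At a fold change of at least 2 as well, 3 of the 10 passed, beside 23.2% of all genes. The median log2 fold change was 0.04 over the 10 genes and -0.03 over all genes. CPM are shares of a library, and RNA per cell is not given in the sources used here, so rises and falls are relative.

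Fasn (Ensembl ENSMUSG00000025153, GRCm38 chromosome 11, 120805846 to 120824547, minus strand) counted 249, 252, 222 and 213 CPM in unstimulated untreated replicates 1 to 4. In stimulated untreated replicates 1 to 4 it counted 869, 879, 703 and 616 CPM. The lowest stimulated sample lay far above the highest unstimulated one. The log2 fold change was 1.70 (SE 0.123, adjusted p = 1.37e-07), a 3.25-fold rise and the largest of the 10 genes.

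Acaca (ENSMUSG00000020532, chromosome 11, 84129672 to 84401651, plus strand) stood at 57.0, 66.6, 56.4 and 61.2 CPM without and 136, 135, 112 and 117 CPM with stimulation. The groups did not overlap, and the log2 fold change was 1.04 (SE 0.0903, adjusted p = 6.26e-07). Of its transcript 50-mers, 29.2% also occur in the gene model Gm5182, which reached at most 15.1 CPM, so a part of the Acaca count is uncertain. Acly (ENSMUSG00000020917, chromosome 11, 100476353 to 100528000, minus strand) moved least of the 3 synthesis enzymes. It counted 227, 224, 205 and 213 CPM in unstimulated and 304, 285, 269 and 268 CPM in stimulated untreated cells. These groups were separate too, at a log2 fold change of 0.36 (SE 0.0729, adjusted p = 0.000702).

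The 4 desaturases did not move as a group. Scd2 (ENSMUSG00000025203, chromosome 19, 44293676 to 44306864, plus strand), which makes monounsaturated fatty acids, counted 742, 809, 836 and 955 CPM in unstimulated untreated cells. With stimulation it counted 371, 463, 542 and 687 CPM, so that every stimulated sample lay below every unstimulated one. Its log2 fold change was -0.72 (SE 0.148, adjusted p = 0.00088). Fads1 (ENSMUSG00000010663, chromosome 19, 10182888 to 10196870, plus strand), the delta-5 desaturase, counted 47.4, 46.5, 46.8 and 50.4 CPM without stimulation. It dropped to 21.0, 21.3, 27.3 and 30.6 CPM with it, at a log2 fold change of -0.95 (SE 0.107, adjusted p = 5.72e-06). Replicates 3 and 4 were the higher ones among the stimulated samples.

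Scd1 (ENSMUSG00000037071, chromosome 19, 44394451 to 44407709, minus strand), the paralogue of Scd2 that liver and fat tissue express strongly, counted 3.04, 5.23, 5.55 and 8.76 CPM without and 2.30, 4.77, 7.15 and 9.72 CPM with stimulation. These groups overlapped almost wholly, and the log2 fold change of 0.03 did not pass (95% interval -0.78 to 0.84, adjusted p = 0.951). Fads2 (ENSMUSG00000024665, chromosome 19, 10064164 to 10101503, minus strand), the delta-6 desaturase, counted 1.85, 3.00, 2.17 and 4.04 CPM without and 1.99, 2.39, 2.79 and 4.69 CPM with stimulation. It did not pass either (0.06, interval -0.57 to 0.69, adjusted p = 0.875). The Scd1 interval includes the change seen in Scd2, and the Fads2 interval ends short of it. Between the paralogues, 2.66% of the Scd2 50-mers also occur in Scd1.

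The elongases split by member. Elovl1 (ENSMUSG00000006390, chromosome 4, 118428093 to 118432953, plus strand), which extends saturated very long chains, counted 65.9, 60.4, 59.3 and 64.1 CPM without and 104, 98.9, 97.9 and 95.3 CPM with stimulation. All stimulated samples were higher (log2 fold change 0.65, SE 0.0665, adjusted p = 2.37e-06). The Elovl1 exons share 53 bases, 1.94% of their length, with the antisense gene Cdc20 (142 to 190 CPM), and the use of strand in the counting is not given in the sources used here.

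Elovl5 (ENSMUSG00000032349, chromosome 9, 77917364 to 77984519, plus strand), which extends polyunsaturated chains, counted 231, 216, 212 and 211 CPM without and 105, 97.5, 112 and 119 CPM with stimulation. Its log2 fold change of -1.02 (SE 0.0711, adjusted p = 1.1e-07) was the largest fall of the 10 genes. Elovl6 (ENSMUSG00000041220, chromosome 3, 129532355 to 129638495, plus strand), which lengthens palmitate to stearate, counted 40.8, 38.8, 33.7 and 34.9 CPM without and 17.2, 17.5, 20.9 and 24.2 CPM with stimulation. It too fell without overlap (-0.91, SE 0.107, adjusted p = 8.37e-06). Over all genes tested, 61.6% had groups without overlap in this comparison, and of the 10 genes these were the 8 that passed.

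**Figure D2:**
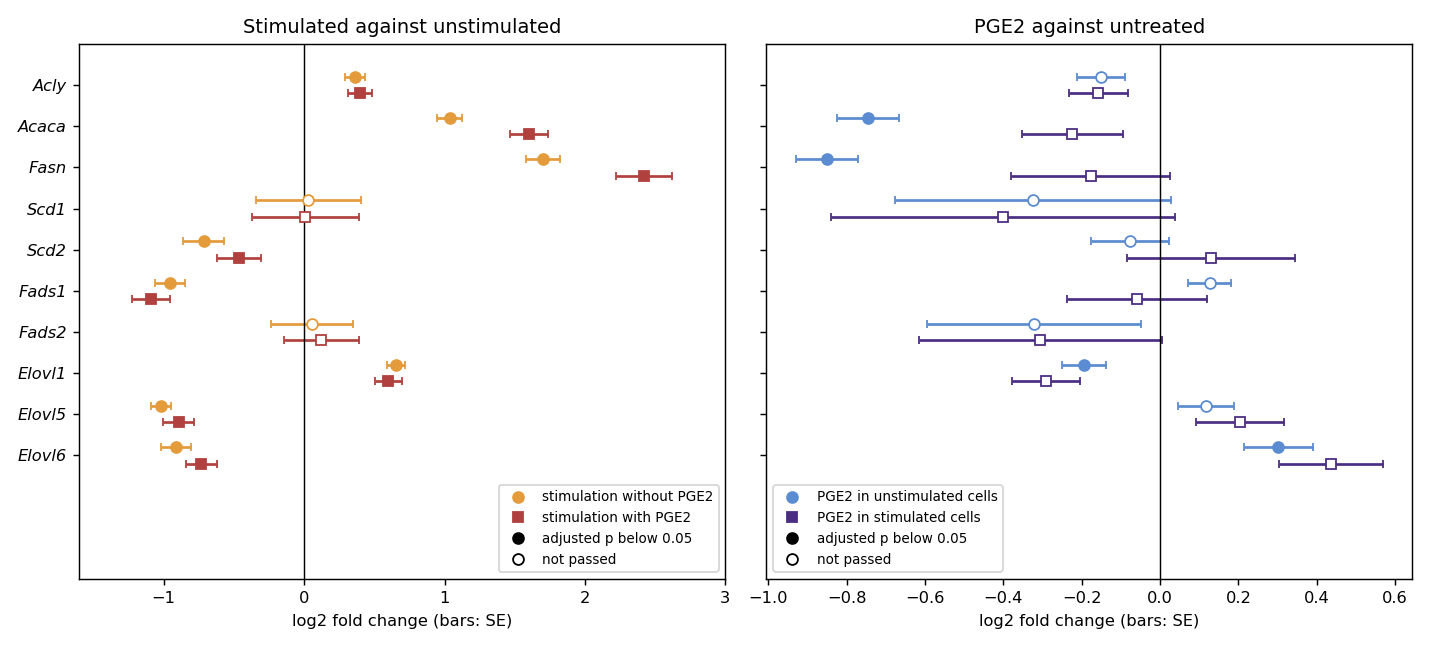
Log2 fold changes of the 10 genes with their SE from edgeR, for stimulation (left) and PGE2 (right); filled symbols passed an adjusted p of 0.05. Stimulation moved 8 genes in both arms, from -1.09 for Fads1 to 2.42 for Fasn with PGE2, and PGE2 effects stayed within -0.85 to 0.44.

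Stimulation of PGE2-treated cells changed the same 8 genes in the same directions, 4 higher and 4 lower, where 64.2% of all genes passed, 32.5% higher and 31.7% lower. Its samples are not those of the comparison above. Fasn counted 145, 127, 110 and 129 CPM in unstimulated PGE2 cells and 894, 796, 546 and 461 CPM in stimulated PGE2 cells. Replicates 3 and 4 were the lower ones among the stimulated samples, yet all 4 stood above every unstimulated sample. The rise was 2.42 on the log2 scale (SE 0.201, adjusted p = 3.39e-06), or 5.35-fold.

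Acaca went from 37.3, 31.8, 33.4 and 39.2 CPM to 125, 120, 96.7 and 83.0 CPM in these cells, a log2 fold change of 1.60 (SE 0.137, adjusted p = 3.93e-06). Acly rose from 214, 195, 175 and 189 CPM to 275, 261, 233 and 236 CPM (0.40, SE 0.0842, adjusted p = 0.00168). Elovl1 rose from 58.3, 51.1, 52.1 and 54.0 CPM to 88.3, 89.2, 75.6 and 69.4 CPM (0.60, SE 0.0967, adjusted p = 0.000263). None of these 3 genes had overlapping groups.

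Among the genes that fell, Fads1 counted 50.1, 50.8, 51.7 and 53.0 CPM in unstimulated and 19.5, 18.8, 28.2 and 29.1 CPM in stimulated PGE2 cells (-1.09, SE 0.135, adjusted p = 4.12e-05). Elovl5 fell from 273, 231, 217 and 210 CPM to 111, 105, 135 and 146 CPM (-0.89, SE 0.111, adjusted p = 4.27e-05). Elovl6 fell from 52.8, 46.4, 41.6 and 39.6 CPM to 24.8, 25.8, 31.9 and 24.6 CPM (-0.73, SE 0.111, adjusted p = 0.000169). In all 3 the stimulated samples lay below the unstimulated ones.

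Scd2 was the exception among the falls, since its groups overlapped. It counted 702, 733, 797 and 890 CPM in unstimulated and 405, 489, 616 and 739 CPM in stimulated PGE2 cells (-0.46, SE 0.157, adjusted p = 0.0234). Without unstimulated PGE2 replicate 4 the adjusted p was 0.0654, without stimulated PGE2 replicate 2 it was 0.0518, and with limma on log2(FPKM + 1) without a filter it was 0.0533. Scd1 (0.01, interval -0.83 to 0.85) and Fads2 (0.12, interval -0.47 to 0.71) did not pass. Over all genes 60.2% had groups without overlap, and 7 of the 10 genes had none. Fasn, Acaca and Fads1 also reached a fold change of 2, as 22.1% of all genes did.

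Each comparison of PGE2 with untreated cells shares samples with each stimulation comparison, so their values stand side by side only. In unstimulated cells PGE2 lowered Fasn, Acaca and Elovl1 and raised Elovl6. These were 4 of the 10 genes, 1 higher and 3 lower, beside 28.4% of all genes (12.9% higher and 15.5% lower). None reached a 2-fold change, as 3.38% of all genes did. The median log2 fold change was -0.17 over the 10 genes and 0.00 over all genes tested.

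Fasn had the largest difference. The 4 PGE2 samples, at 110 to 145 CPM, lay below the 4 untreated samples at 213 to 252 CPM, and the log2 fold change was -0.85 (SE 0.0797, adjusted p = 2.49e-05). This is a level 1.80-fold lower in PGE2 cells. Acaca was lower by a similar factor, at 31.8 to 39.2 CPM against 56.4 to 66.6 CPM (-0.75, SE 0.0787, adjusted p = 5.31e-05). Acaca and Fasn passed at an adjusted p of 0.05 under all 18 alternatives tried besides the 2-fold threshold, with log2 fold changes of -0.80 to -0.54 and -0.90 to -0.79. Acly, the enzyme ahead of them, stood at -0.15 (SE 0.0609, adjusted p = 0.0897) and its groups overlapped.

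The differences in the elongases were smaller. Elovl1 counted 51.1 to 58.3 CPM in PGE2 and 59.3 to 65.9 CPM in untreated cells (-0.19, SE 0.0557, adjusted p = 0.0228). Elovl6 counted 39.6 to 52.8 CPM against 33.7 to 40.8 CPM, so its groups overlapped by a little (0.30, SE 0.0882, adjusted p = 0.0242). Fasn, Acaca and Elovl1 were the 3 genes without overlap, beside 28.9% of all genes. The Elovl1 call was lost under 8 of 18 alternatives, among them the removal of untreated replicate 1, 2 or 4 or of PGE2 replicate 2 or 3, at adjusted p from 0.054 to 0.123. The Elovl6 call was also lost under 8 of 18, among them the removal of untreated replicate 3 or 4 or of PGE2 replicate 1 or 2, at adjusted p from 0.0544 to 0.147.

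Samples with the same replicate number tended to deviate from their group means alike, with correlations of 0.137 to 0.444 in unstimulated and 0.190 to 0.423 in stimulated cells. The labels do not give this pairing. In stimulated cells, untreated replicate 2 correlated more with PGE2 replicate 1 (0.212) than with PGE2 replicate 2 (0.190). The numbers were treated as pairs in the comparisons where every same-numbered pair correlated above 0.1. With the replicate number as a block, 8 of the 10 genes passed for PGE2 in unstimulated cells, 3 higher and 5 lower, where 47.8% of all genes passed. To the 4 genes above came Acly (-0.15, adjusted p = 0.00182), Scd1 (-0.34, adjusted p = 0.0169), Fads1 (0.13, adjusted p = 0.0189) and Elovl5 (0.11, adjusted p = 0.0245). By replicate number, Acly was lower in 4 of 4 numbers, by 0.09 to 0.23 on the log2 scale, and Scd1 was lower in 4 of 4. Fads1 was higher in 4 of 4 and Elovl5 in 3 of 4.

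In stimulated cells none of the 10 genes passed for PGE2 in edgeR's unpaired test, where 9.84% of all genes did. At an unadjusted p below 0.05, Elovl1 and Elovl6 were the 2 genes of the 10 that passed, and 27.0% of all genes did. DESeq2's Wald test called the same pair, and limma on log2(FPKM + 1) called none. Elovl6 counted 17.2, 17.5, 20.9 and 24.2 CPM in untreated and 24.8, 25.8, 31.9 and 24.6 CPM in PGE2 cells. All PGE2 samples were above all untreated samples, though untreated replicate 4 came close (0.44, SE 0.133, adjusted p = 0.0671; DESeq2 adjusted p = 0.0227).

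Elovl1 showed the opposite sign. Its 4 PGE2 samples at 69.4 to 89.2 CPM lay below the untreated ones at 95.3 to 104 CPM (-0.29, SE 0.0867, adjusted p = 0.0624; DESeq2 adjusted p = 0.023). These were the 2 genes without overlap, where 17.9% of all genes had none. Fasn, at 461 to 894 CPM with PGE2 and 616 to 879 CPM without, had a log2 fold change of -0.18 with a 95% interval of -0.63 to 0.27. That interval does not reach the -0.85 measured in unstimulated cells, and the test of the difference itself is the interaction below. Acaca stood at -0.22 (interval -0.51 to 0.06) and Acly at -0.16 (interval -0.33 to 0.01).

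The paired fit read differently here as well. With the replicate block 8 of the 10 genes passed, 3 higher and 5 lower, beside 39.8% of all genes. Scd2 (0.13, adjusted p = 0.0305), Elovl5 (0.20, adjusted p = 0.00628) and Elovl6 (0.44, adjusted p = 0.00331) were higher, each in 4 of 4 numbers. Acly (-0.16, adjusted p = 0.011), Acaca (-0.24, adjusted p = 0.01), Scd1 (-0.37, adjusted p = 0.0292) and Elovl1 (-0.30, adjusted p = 0.00163) were lower in 4 of 4. Fasn (-0.21, adjusted p = 0.0391) was lower in all numbers but the first, which differed by 0.04. For Elovl6 the difference was 0.53, 0.56 and 0.61 in numbers 1 to 3 and 0.02 in number 4.

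**Figure D3:**
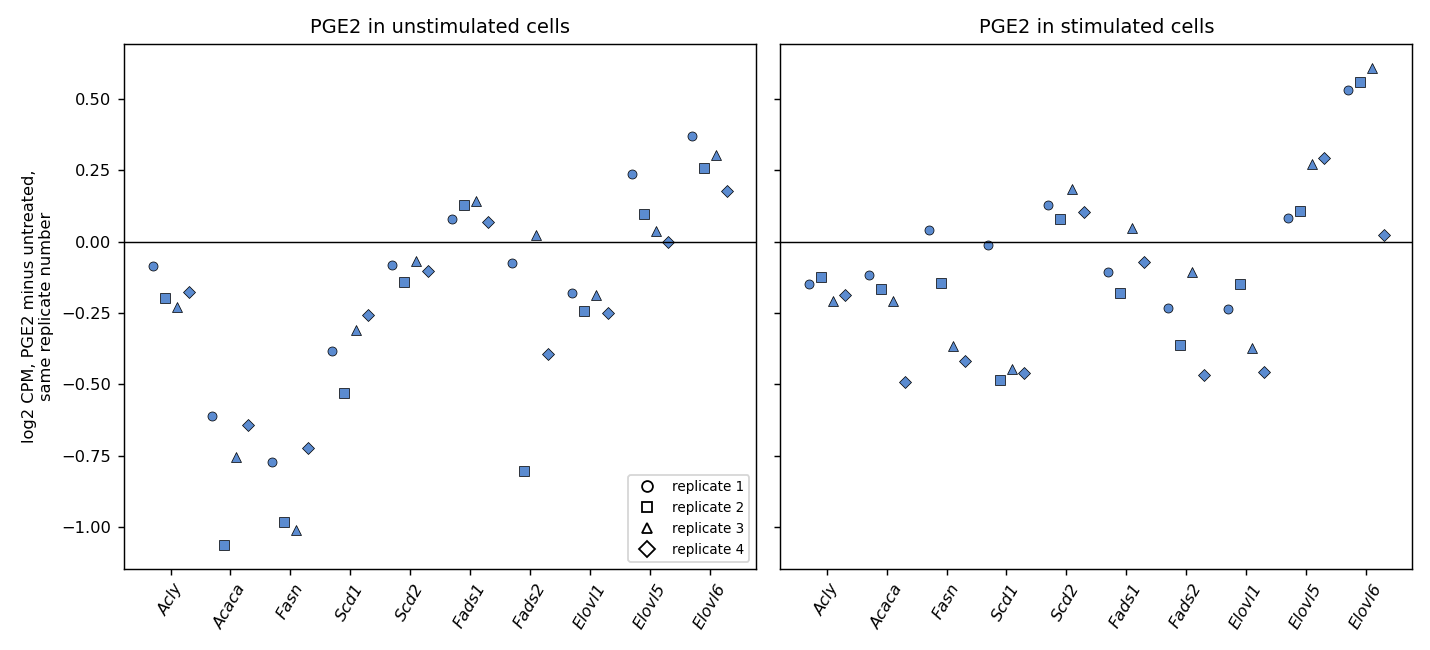
Difference in log2 CPM between PGE2 and untreated samples of the same replicate number, for unstimulated (left) and stimulated (right) cells. The Fasn differences lay between -1.01 and -0.72 in unstimulated cells and between -0.42 and 0.04 in stimulated cells, and those of Elovl6 were above 0 in both.

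Whether the effect of PGE2 differed with stimulation was tested by the interaction over all 16 samples. None of the 10 genes passed in edgeR's unpaired test, where 0.749% of all genes did. Fasn had the largest interaction, 0.68 on the log2 scale (SE 0.237, adjusted p = 0.280). With the replicate block in edgeR it was 0.66 (adjusted p = 0.0292), where 408 of 15096 genes passed. The numbers were not treated as pairs here, since only 21 of 24 same-numbered pairs correlated above 0.1. Acaca followed in the unpaired test with 0.53 (SE 0.162, adjusted p = 0.186, and 0.0305 without stimulated PGE2 replicate 4). At an unadjusted p below 0.05, Fasn and Acaca passed and 9.37% of all genes did. Neither DESeq2 nor limma called any of the 10. Scd2 was lower with PGE2 in 4 of 4 numbers of unstimulated cells and higher in 4 of 4 of stimulated cells, and its interaction of 0.22 did not pass (SE 0.247, adjusted p = 0.906).

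Replicate numbers accounted for most of the variation of Scd1 and Fads2. Number 1 held the lowest Scd1 level in every group, 2.29 to 3.04 CPM, and number 4 the highest, 7.05 to 9.72 CPM. The 4 group means of Scd1 lay between 4.43 and 5.99 CPM. Of the sum of squares of its log2 CPM over the 16 samples, 88.9% lay between replicate numbers and 7.56% between groups. For Fads2 these shares were 75.3% and 13.5%, and for Scd2 32.4% and 61.3%. The medians over 15096 genes were 9.67% between numbers and 75.7% between groups, and only 17 of these genes had a larger share between numbers than Scd1, and 149 than Fads2. Elovl6 was at the other end, with 0.223% between numbers. This share holds only what the numbers had in common over the 4 groups. Elovl6 in number 1 was highest in both unstimulated groups (40.8 and 52.8 CPM) and lowest in stimulated untreated cells (17.2 CPM), and such differences cancel in it. In Scd2 number 1 was lowest and number 4 highest in all 4 groups as well. What samples of 1 number have in common is not given in the labels.

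**Figure D4:**
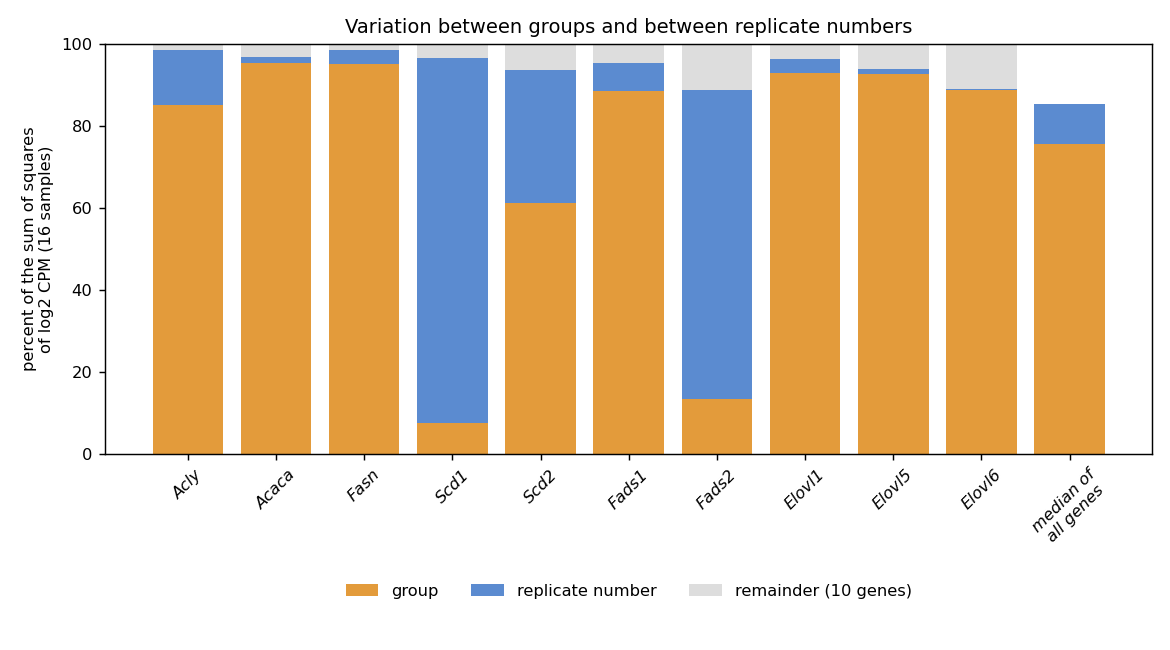
Share of the sum of squares of log2 CPM over the 16 samples that lies between groups (orange) and between replicate numbers (blue), for the 10 genes and as medians over 15096 genes. Scd1 (88.9%) and Fads2 (75.3%) stand out by their blue share, and Acaca and Fasn by an orange share above 95%.

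RefSeq promoters of GRCm38.p6 were on hand for 7 of the 10 genes, without Scd1, Scd2 and Fads1, and all of these were read. Some of members that moved with stimulation are printed, to show which sequences lie at genes of opposite direction. Below are those of Fasn (chr11:120824518-120824797, minus strand) and Elovl1 (chr4:118427843-118428122, plus strand), which rose, and of Elovl5 (chr9:77917115-77917394, plus strand) and Elovl6 (chr3:129532136-129532415, plus strand), which fell. Each runs 5′ to 3′ over 250 bases before and 30 after the start of transcription. Capitals mark matches to 6 motifs, searched on both strands: the E-box CACGTG, the sterol regulatory element TCACNCCAC, the CCAAT box CCAAT, the GC box GGGCGG, the cAMP response element TGACGTCA and its part TGACG.
Fasn promoter: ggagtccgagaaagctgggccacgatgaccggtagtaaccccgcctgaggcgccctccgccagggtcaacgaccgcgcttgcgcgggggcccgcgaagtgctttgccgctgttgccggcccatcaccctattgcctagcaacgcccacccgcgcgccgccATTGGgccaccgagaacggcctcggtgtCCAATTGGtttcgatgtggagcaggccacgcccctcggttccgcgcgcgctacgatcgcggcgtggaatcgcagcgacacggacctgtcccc
Elovl1 promoter: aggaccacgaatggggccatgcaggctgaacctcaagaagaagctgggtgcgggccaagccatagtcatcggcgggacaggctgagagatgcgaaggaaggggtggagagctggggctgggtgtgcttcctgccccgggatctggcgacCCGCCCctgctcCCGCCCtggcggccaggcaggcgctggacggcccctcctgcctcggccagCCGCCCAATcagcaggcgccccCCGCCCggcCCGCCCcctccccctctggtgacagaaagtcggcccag
Elovl5 promoter: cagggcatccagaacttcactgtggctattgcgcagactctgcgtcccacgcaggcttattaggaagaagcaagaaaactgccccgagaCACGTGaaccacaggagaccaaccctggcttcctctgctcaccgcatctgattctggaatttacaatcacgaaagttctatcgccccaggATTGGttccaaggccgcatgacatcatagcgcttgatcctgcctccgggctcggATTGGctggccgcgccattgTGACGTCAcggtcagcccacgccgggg
Elovl6 promoter: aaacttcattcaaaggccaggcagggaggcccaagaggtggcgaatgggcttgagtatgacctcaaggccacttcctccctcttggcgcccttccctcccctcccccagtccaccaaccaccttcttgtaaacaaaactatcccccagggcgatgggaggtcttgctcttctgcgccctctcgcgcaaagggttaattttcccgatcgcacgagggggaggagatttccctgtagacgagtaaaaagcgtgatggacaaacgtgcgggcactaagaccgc

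The Fasn window held 3 CCAAT boxes, 2 of them overlapping on opposite strands, and 37.4% of 32851 promoters searched in the full window of 250 bases before to 50 after the start held at least 1. Elovl1 held 5 GC boxes, found in 35.7% of promoters, and 1 CCAAT box that overlaps one of them. RefSeq gives Elovl1 a second entry (chr4:118429451-118429750, plus strand), not printed here, which held 2 GC boxes and no other match. Elovl5 held 1 E-box (7.15% of promoters), 2 CCAAT boxes and 1 cAMP response element (1.79%), whose 2 ends each match TGACG (20.8%). Elovl6 held no match. The sterol regulatory element as spelled here, present in 1.24% of promoters, was in none of the 7 genes' windows. The Acly window had 4 GC boxes and 1 CCAAT box, Fads2 had 1 GC box and the Acaca entry, which lies at a start inside the gene, had none. Motif matches describe the letters and are not measured binding sites.

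Among the regulators of lipid synthesis (13 of 14 tested), stimulation raised 4 and lowered 6 without PGE2 and raised 4 and lowered 8 with PGE2. These are 10 and 12 of 13 genes, where 66.5% and 64.2% of all genes passed. PGE2 raised 3 and lowered 2 in unstimulated cells, and raised 1 and lowered none in stimulated cells, where 28.4% and 9.84% of all genes passed. With the replicate block these calls were 5 higher and 4 lower in unstimulated cells and 3 higher and 5 lower in stimulated cells. Of all genes, 47.8% and 39.8% passed with the block. Srebf2, which encodes the SREBP that drives cholesterol genes, rose with stimulation from 269 ± 22.3 to 343 ± 14.4 CPM (0.34, adjusted p = 0.00191). Srebf1, whose product drives fatty acid genes, stood at 162 ± 8.09 and 152 ± 7.06 CPM (-0.10, adjusted p = 0.196). With PGE2 in unstimulated cells Srebf1 rose to 184 ± 6.68 CPM (0.20, adjusted p = 0.0167). Insig1, the sterol sensor that retains SREBP and is itself an SREBP target, rose with stimulation (1.58, adjusted p = 2.62e-07) and fell with PGE2 in unstimulated cells (-0.61, adjusted p = 0.00118). In stimulated cells its log2 fold change with PGE2 was -0.48 (adjusted p = 0.0722, and 1.8e-05 with the block). Nr1h2, which encodes LXR-beta, rose with PGE2 in unstimulated (0.46, adjusted p = 0.000418) and stimulated cells (0.29, adjusted p = 0.0311). Nr1h3, which encodes LXR-alpha, was low at 0.588 to 3.55 CPM and fell with stimulation (-1.15, adjusted p = 0.00103).

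The genes that supply acetyl-CoA, malonyl-CoA and NADPH also split. Without PGE2, stimulation raised 4 and lowered 6 of 10 tested, and with PGE2 it raised 4 and lowered 5 of 11. Of all genes, 31.7% were higher and 34.8% lower without PGE2, and 32.5% higher and 31.7% lower with it. Slc25a1, the carrier that exports mitochondrial citrate, the Acly substrate, rose from 26.5 ± 2.54 to 68.5 ± 6.12 CPM (1.36, adjusted p = 1.01e-07). The acetyl-CoA synthetases fell, Acss2 by 1.61 (adjusted p = 5.06e-06) and Acss1 by 2.01 on the log2 scale (adjusted p = 3.82e-08). PGE2 lowered 1 of 10 in unstimulated cells, beside 15.5% of all genes. With the block 2 were higher and 2 lower, where 47.8% of all genes passed. In stimulated cells PGE2 raised Acss1 (0.35, adjusted p = 0.0356) and lowered Slc25a1 (-0.28, adjusted p = 0.0437), of 11 tested, where 9.84% of all genes passed. The block gave 1 higher and 2 lower there, beside 39.8% of all genes. Malic enzyme Me1 was at most 0.682 CPM in every sample.

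The other elongases and their partners split as well. Of the other elongases, desaturases and partners, stimulation raised 8 and lowered 5 of 15 without PGE2 and raised 8 and lowered 3 of 16 with PGE2, where 66.5% and 64.2% of all genes passed in either direction. Hsd17b12, the ketoreductase of the cycle, rose by 1.15 (adjusted p = 8.9e-07) and the dehydratase Hacd3 by 1.11 (adjusted p = 1.65e-07). Tecr, the reductase of its last step, fell (-0.19, adjusted p = 0.0461). PGE2 raised 1 and lowered 5 of 15 in unstimulated cells (12.9% and 15.5% of all genes), among them Hsd17b12 (-0.29, adjusted p = 0.00843). With the block 2 were higher and 6 lower there, where 47.8% of all genes passed. In stimulated cells none of 14 passed in edgeR's unpaired test, where 9.84% of all genes did. Of these 14, 2 passed at an unadjusted p below 0.05, 1 in DESeq2, none in limma, and 4 with the block, all lower. Of all genes, 27.0% passed at that unadjusted p and 39.8% with the block. The 1 gene that PGE2 raised in unstimulated cells was Fads3, which stayed at or below 0.869 CPM. Of the mitochondrial fatty acid synthesis genes (5 of 6 matched), stimulation raised 3 in both arms and lowered 2 without and 1 with PGE2, where again 66.5% and 64.2% of all genes passed. PGE2 lowered 2 in unstimulated and 1 in stimulated cells, where 15.5% of all genes were lower and 9.84% passed in either direction. Mecr was included in both cases (-0.75 and -0.46, adjusted p = 0.000322 and 0.0326). With the block 2 were lower in unstimulated and 2 in stimulated cells, where 47.8% and 39.8% of all genes passed.

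Of 15 cholesterol targets of SREBP2, PGE2 lowered 11 in unstimulated and 10 in stimulated cells and raised none, with medians of -0.51 and -0.41 against 0.00 and -0.01 over all genes. Of all genes, 15.5% were lower in unstimulated cells and 9.84% passed in either direction in stimulated cells. With the block 14 and 13 of the 15 were lower and none higher, where 47.8% and 39.8% of all genes passed. Hmgcs1, an early step of cholesterol synthesis, fell by 0.43 (adjusted p = 0.000916) and by 0.47 on the log2 scale (adjusted p = 0.00599). Stimulation raised 10 of the 15 in both arms, beside 31.7% and 32.5% of all genes, and lowered 3 without and 2 with PGE2. Fatty acid oxidation went the other way with stimulation, which raised 1 and lowered 9 of 12 without and raised none and lowered 9 of 12 with PGE2, where 34.8% and 31.7% of all genes were lower. Cpt1a, which brings fatty acids into mitochondria, fell by 1.94 (adjusted p = 5.3e-08) and by 1.53 (adjusted p = 9.94e-06). PGE2 raised 2 and lowered 1 of 13 oxidation genes in unstimulated cells, where 28.4% of all genes passed. With the block 5 were higher and 1 lower, where 47.8% of all genes passed. None of 12 passed in stimulated cells in edgeR. Of these 12, 3 passed at an unadjusted p below 0.05, 1 in DESeq2 and none in limma, while with the block 8 were higher and 1 lower. Of all genes, 27.0% passed at that unadjusted p and 39.8% with the block.

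The 10 genes of fatty acid activation and binding held the only interaction calls of these lists. Stimulation raised 6 and lowered 2 without and raised 5 and lowered 2 with PGE2, and PGE2 raised 4 and lowered 4 in unstimulated and raised 1 and lowered 1 in stimulated cells, where the block gave 2 higher and 5 lower. In the same order, 66.5%, 64.2%, 28.4% and 9.84% of all genes passed, and 39.8% did with the block in stimulated cells. For PGE2 in unstimulated cells the block gave 5 higher and 5 lower, beside 47.8% of all genes. The acyl-CoA synthetase Acsl3 rose with PGE2 in unstimulated cells from 8.69 ± 1.44 to 17.6 ± 0.982 CPM (1.04, adjusted p = 6.34e-05), and in stimulated cells it stood at 12.6 ± 0.982 and 14.5 ± 2.37 CPM (0.20, adjusted p = 0.307). Its interaction was -0.82 (adjusted p = 0.0349). That of Acsl5 was 0.54 (adjusted p = 0.0485), with PGE2 effects of -0.84 in unstimulated and -0.31 in stimulated cells. Acsl4, which favours arachidonic acid, rose with stimulation (0.42, adjusted p = 0.000665) and with PGE2 in unstimulated cells (0.21, adjusted p = 0.0218). The 2 interaction calls, of Acsl3 and Acsl5, were made by edgeR. For the interaction DESeq2 called 2 genes of this list and limma none. None of the genes of the other 6 lists passed the interaction in edgeR, DESeq2 or limma. At an unadjusted p below 0.05, 3 of the 15 cholesterol genes and 1 of the 16 other elongases, desaturases and partners passed it, and no gene of the remaining 4 lists. Of all genes, 9.37% did.

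**Figure D5:**
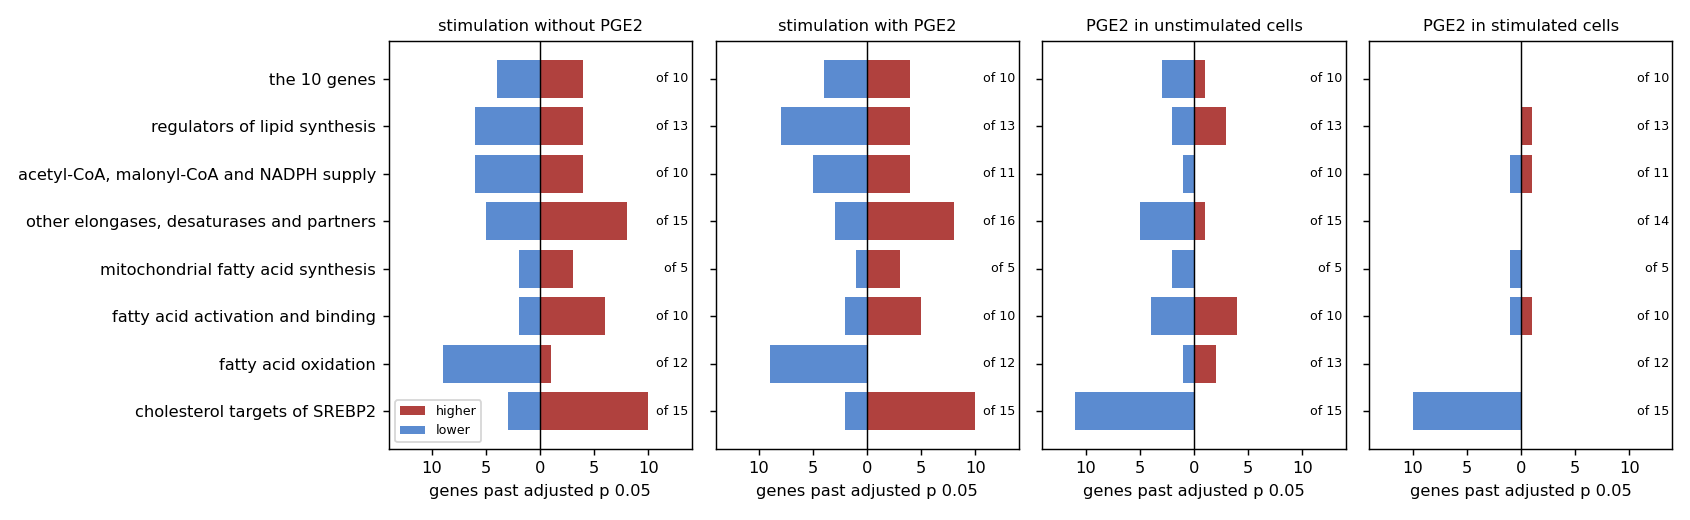
Number of genes past an adjusted p of 0.05 that were higher (red, to the right) or lower (blue, to the left) in 4 comparisons, for the 10 genes and 7 lists of related genes; the number tested stands at the right. The cholesterol targets of SREBP2 show 11 and 10 lower genes of 15 with PGE2, and fatty acid oxidation 9 lower of 12 with stimulation in both arms.

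The likeness of expression profiles was measured as the root-mean-square difference of centred log2 CPM over the 16 samples, against 15095 genes, for the 3 members whose group means spanned most. Fasn, with a span of 2.57, was nearest to Nol9 (0.0677) and Mettl13 (0.0701). Acaca, with a span of 1.81, was nearest to AW209491 (0.0738), Wdr36 (0.0781) and Psmg2 (0.0782). Elovl6, with a span of 1.18, was nearest to Numb (0.0910), Lrig2 (0.103) and Lrif1 (0.112). The 16 samples share their groups and depth, so the likeness is a description.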

How the data were processed

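RNA-seq of 16 samples in 4 groups was used. Per the submitters' processing notes, reads were aligned to GRCm38 (mm10) with HISAT2 2.0.5, counted per gene with featureCounts 1.5.0-p3 and tested with DESeq2 1.20.0. The libraries were poly(A)-selected, and the annotation release and the use of strand are not given in the sources used here. The authors deposited whole-number counts per gene without normalization, and FPKM values that scale the counts by gene length and library. All 16 columns of both tables matched a sample by name, 0 columns were left unused and no other column of the authors' comparisons was used.

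Counts were fitted in edgeR 4.0.16 (R 4.3.3) after filterByExpr at a minimum count of 10 and TMM scaling. The two-sided quasi-likelihood test (glmQLFit, glmQLFTest) was adjusted by Benjamini-Hochberg over all genes tested. Pairwise comparisons used their own 8 samples without covariates, and the interaction used all 16. Genes passed at an adjusted p below 0.05. Values in CPM are per 1000000 counts of TMM-scaled library size and log2 CPM used a prior count of 2. The scripts were tested on simulated data. Depth was 22678254 to 42950763 counts, and chi-square per degree of freedom between replicates was 8.46 to 56.8, so no replicates were the same library and spread between samples limits precision more than counting error.

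Same-numbered samples were checked for pairing by the correlation of their deviations from group means over all genes. All 4 pairs were over 0.1 for PGE2 in stimulated cells (0.190 to 0.423), PGE2 in unstimulated cells (0.137 to 0.444) and stimulation without PGE2 (0.112 to 0.359), and 2 of 4 for stimulation with PGE2 (0.0439 to 0.281). The pairing comes from the data and not from the labels.

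Alternatives were DESeq2 1.42.0, the scaling factors RLE and upper quartile, either no filter on counts or a count of 10 or more in all samples, the replicate block, a 2-fold threshold, a single fit of the 16 samples and each replicate left out. In addition limma 3.58.1 was run on log2 FPKM with pseudocounts of 1 and 0.1 where the mean FPKM was 1 or more, and with a pseudocount of 1 on all genes. A leave-out keeps at least 3 samples in each group.

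Named are all 10 members, 17 genes fixed by name from 7 lists of related genes, at most the 2 genes per list and comparison with the largest passing change, and the 3 genes nearest in profile to the 3 members of widest span. Some genes that this rule names are not reported here. The members and lists were chosen with earlier results of these data known. Shared 50-mers and exon overlaps were counted on GENCODE release M21, and promoters came from RefSeq.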

Additional observations from a re-analysis of the deposited data

Results flagged for a closer look

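Elovl6 in stimulated PGE2 cells had 1 sample apart from the rest. Replicate 3 stood at 31.9 CPM, while the other 3 lay between 24.6 and 25.8 CPM, and its gap was 0.834 of the range of the group, above Dixon's 95% critical value for 4 samples. In all, 40 groups of 4 samples were looked at, and chance marks about 1 in 20 of them.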

How the results depend on the processing

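Chi-square values between replicates exceeded counting error, so spread between samples limits precision more than depth. For PGE2 in stimulated cells, 0 of the 10 genes passed, against 2 with DESeq2, 1 with upper-quartile factors, 1 with no filter, 2 in 1 fit of all 16 samples, 8 with the replicate block and 0 to 2 when a replicate was left out. For PGE2 in unstimulated cells, 4 passed, against 2 with limma on log2(FPKM + 1) without a filter, 2 in 1 fit of all 16 samples, 8 with the replicate block, 0 at a fold change of at least 2 and 2 to 4 when a replicate was left out (2 without untreated replicate 4 or PGE2 replicate 2). Stimulation gave 8 calls in both arms, 3 at a fold change of at least 2, and 8 and 7 to 8 when a replicate was left out. For the interaction 0 passed, against 1 with the replicate block (Fasn, 0.66, adjusted p = 0.0292) and 0 to 1 when a replicate was left out (Acaca without stimulated PGE2 replicate 4). The numbers were not treated as pairs in the interaction or in stimulation with PGE2, where 21 of 24 and 2 of 4 same-numbered pairs correlated above 0.1. Each of the 16 samples was also compared with each other group, and in 43 of these 48 cases it correlated best with its own number. The block changed no call of the 10 genes in either stimulation comparison. In the interaction, 2 of the 15 cholesterol genes passed with the block.

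Upper-quartile factors moved the median of all genes to -0.13 in both stimulation comparisons, and the 8 calls had the same directions. Over all genes, calls for PGE2 in stimulated cells were 1370, against 2219 with DESeq2, 679 with limma without a filter, 2161 in 1 fit of all samples, 5544 with the block, 243 at a fold change of at least 2 and 630 to 1854 when a replicate was left out. For PGE2 in unstimulated cells they were 4122, against 6938 with the block and 490 at a fold change of at least 2. For stimulation they were 9440 and 9309, against 3301 and 3210 at that fold change. For the interaction they were 113, against 235 with DESeq2, 37 to 53 with limma, 408 with the block, 35 at a difference of at least 1 on the log2 scale and 44 to 217 when a replicate was left out.

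Among values that did not pass, some changed sign. With upper-quartile factors, stimulation without PGE2 gave -0.055 for Scd1 and -0.034 for Fads2, and stimulation with PGE2 gave -0.11 for Scd1. The latter was -0.047 with no filter, -0.027 with 10 counts in every sample and -0.00095 with limma without a filter. The Fads2 interaction was -0.0019 with no filter and -0.00080 with limma. The Acly interaction was -0.014 with DESeq2 and RLE factors, -0.011 with upper-quartile factors, -0.029 with no filter and -0.015 in the 3 limma fits. When a replicate was left out, PGE2 in stimulated cells ranged from -0.029 to 0.30 for Scd2, -0.16 to 0.052 for Fads1 and -0.51 to 0.00077 for Fads2. Stimulation without PGE2 ranged from -0.29 to 0.32 for Scd1 and -0.23 to 0.30 for Fads2, and with PGE2 from -0.27 to 0.37 for Scd1 and -0.072 to 0.33 for Fads2. The interaction ranged from -0.050 to 0.047 for Acly, -0.36 to 0.30 for Scd1 and -0.21 to 0.34 for Fads2. The cause was not tested.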
